A study of Acorus calamus with 8 samples.

Results

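Leaves of cut and of uncut sweet flag (Acorus calamus) explants were compared at 4 days, with 1 library on each side, so every value describes these 2 libraries and carries no test. They are 2 of the 8 libraries of the series. Explants, some with shortened leaves (cut) and some with leaves left whole (uncut), grew on Murashige and Skoog medium that gave both groups the auxins 2,4-D, at 2 mg/l, and NAA, at 0.5 mg/l. Per the labels the 4 days are counted from the cutting for the uncut explants too, and the explants were grown for extension of the rhizome, the underground stem. The number of explants behind a library is not given. The comparison took features, the contigs of an assembled transcriptome, with at least 50 expected counts in 1 of the 2 libraries, leaving out 35 ribosomal RNA features. That left 4048 features of the 20885 named in either table, of which 1905 reached 50 counts in both libraries, 1120 did so in cut leaf alone and 1023 in uncut leaf alone. A description was available for 3474 of the 4048.

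A cut leaf loses photosynthetic area, and is wounded. Wounding in plants is known to call on jasmonate and ethylene signalling, on defence proteins and on WRKY, NAC and ERF transcription factors. Regrowth draws on cell division, on ribosomes and on the cytoskeleton, which builds the spindle and guides wall synthesis. Auxin acts through auxin response factors (ARFs), which bind target promoters and are held in check by Aux/IAA proteins.

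Cut leaf held 12541185 counts and uncut leaf 9337733. Ribosomal RNA features took 82.3% of the counts in cut leaf and 77.2% in uncut leaf, organelle features 9.94% and 12.7%, and the remaining features, called nuclear here, 974344 and 938229 counts. Nuclear counts of the 8 libraries ran from 119869 to 1692360. The labels' protocols name oligo dT selection and rRNA depletion as alternatives, without saying which a library received. Of 42 markers of leaf photosynthetic cells, 41 had counts in cut leaf and 42 in uncut leaf, with 29712 and 54646 counts in sum. In these bulk libraries, fewer cells of a type and less RNA per cell cannot be told apart.

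The ratio of cut to uncut leaf depended on the length of the feature. Split by length into 10 equal groups, the shortest of the 4048 features, of 215 to 864 bases, had a median log2 ratio of -1.36, and the median was higher in each further group, up to 1.64 among features of 2910 bases or more. The leaf libraries at a month had nearly equal medians in all 10 groups, from -0.24 to -0.04. The rhizome libraries at 4 days had a gradient like that of leaf at 4 days, from -0.40 to 2.20. Both 4-day cut libraries were rich in long features. Leaving out 1 undescribed feature (Unigene19161, 310 bases, 307361 counts in cut and 196046 in uncut leaf), features of 2000 bases or more held 38.1% of the nuclear counts of cut leaf and 37.4% of those of cut rhizome at 4 days, against 25.2% in uncut leaf. The part of this length pattern in the results was not tested. Each ratio is therefore given on 2 scales: plain, after scaling the 2 libraries to each other, and length-matched, as its difference from the median of the 400 tested features nearest in length, on the log2 scale.

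**Figure D1:**
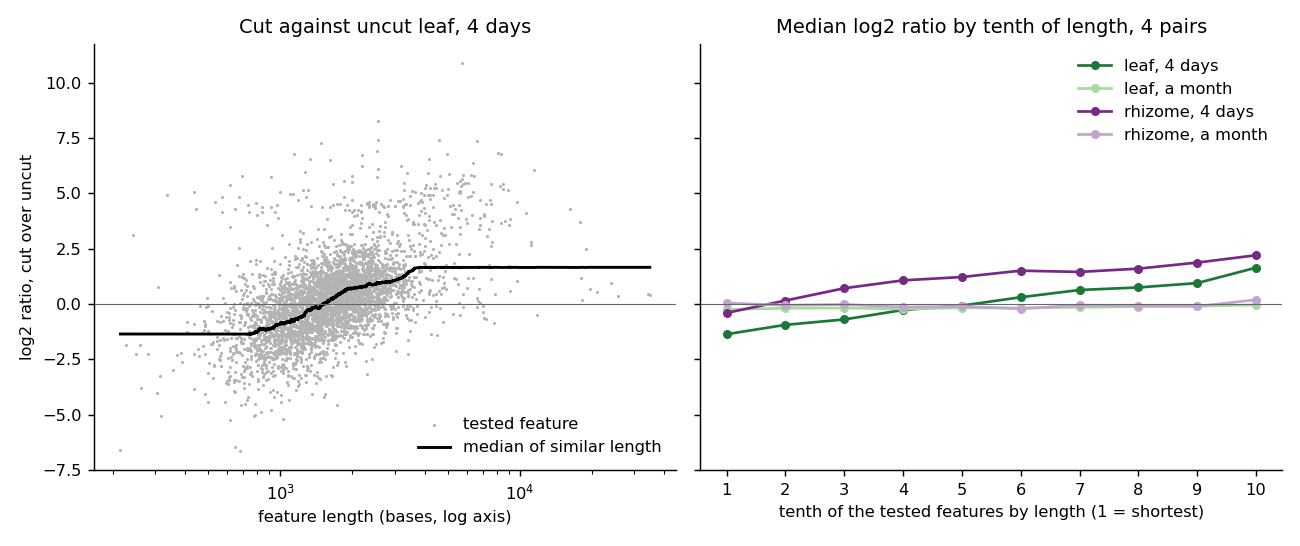
Left, the log2 ratio of cut over uncut leaf at 4 days of each of the 4048 features against its length in bases (log axis), with the median of features of similar length as a line. Right, the median log2 ratio in 10 equal groups of the tested features by length for the 4 cut against uncut pairs; the leaf and rhizome pairs at 4 days climb with length, and both pairs at a month stay near 0.

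On the plain scale, 447 features (11% of those tested) were at least 4-fold higher in cut leaf and 339 (8.37%) at least 4-fold lower; on the deposited FPKM values with 0.1 added, 287 were higher and 549 lower. Length-matched, 348 (8.6%) were at least 4-fold higher and 197 (4.87%) at least 4-fold lower. Both rules together held for 279 higher and 140 lower features. Of the 279, 44 belonged to organelles and 164 had no description. Of the 140, 97 were described. The 4-fold rule counts features that are near absent from 1 library more easily than abundant ones: among the 1905 features with at least 50 counts in both libraries, 28 were 4-fold higher and 45 lower on the plain scale, and 16 and 36 length-matched.

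Among the gene lists, the largest excess in cut leaf lay in retrotransposons, mobile elements that copy themselves through RNA and are usually kept silent. The 41 annotated features held 10995 counts in cut leaf and 169 in uncut leaf, which is 1.13% and 0.0180% of nuclear counts and a 70.7-fold scaled ratio [60.7, 82.8], where brackets give 95% intervals that cover counting error only. All 12 tested features were higher by the plain rule, and their median log2 ratio was 5.85 plain and 4.82 length-matched, against 0.14 and 0.00 over all tested features. None of the 12 reached 50 counts in uncut leaf. All entered through cut leaf alone, which favours higher ratios, while the sums over the 41 features used no minimum. CL30.Contig5, described as a retrotransposon protein, held 2576 and 25 counts (112-fold higher [75.6, 173]). CL30.Contig4, a reverse transcriptase of the same cluster, held 2012 and 20 counts, and Unigene2355, a gag-pol polyprotein, 1861 and 12 (168-fold higher [96.2, 327]). Contigs of 1 cluster share reads, and the 8 contigs of CL30 together held 8882 and 117 counts.

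In rhizome at 4 days the 41 features held 9134 counts in the cut and 31 in the uncut library, 1.07% and 0.0259% of nuclear counts, close to the shares in cut and uncut leaf. At a month they held 253 counts in cut leaf and 1799 in uncut leaf (0.0330% and 0.106%), so cut leaf was the lower of the leaf libraries there, and 1905 and 302 in cut and uncut rhizome (0.408% and 0.0635%). Undescribed nuclear features had no such shift in their median: over 518 tested, the log2 ratio was -0.18 plain and 0.04 length-matched. Large ratios were more frequent among them in both directions, however. On the plain scale 154 of the 518 were at least 4-fold higher and 89 lower, against 11% and 8.37% of all tested features. The 127 undescribed nuclear features that were 4-fold higher on both scales came from 114 clusters or single features. The 8 contigs of cluster CL18, without a description, held 6816 counts in cut leaf and 52 in uncut leaf (142-fold higher [108, 191]), 7437 and 7 in cut and uncut rhizome at 4 days, and 139 and 1887 in cut and uncut leaf at a month; this cluster was picked after its values were seen. The length-matched value says least about such long features, since all features above 3836 bases share 1 median. Above that length, 47 described nuclear features that are no retrotransposons had a median plain log2 ratio of 1.14, and 10 were 4-fold higher. For 87 organelle features the median was 2.51, with 48 higher. It was 4.17 for 60 undescribed nuclear features, with 59 higher, and 6.56 for 7 retrotransposons, with 7 higher.

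Features with a nuclear description that share this pattern were among the strongest in their lists. CL143.Contig4, described as a basic proline-rich protein, a kind of cell wall protein, is 11432 bases long and held 2726 and 45 counts, and its cluster 3221 and 61. CL2486.Contig8, described from SwissProt as the gamma subunit of mitochondrial ATP synthase, held 78 and 2 counts (42.4-fold higher [11.3, 356]), and its 9 contigs 1413 and 62. CL30.Contig7, described as a chromodomain protein, held 98 and 2 counts and lies in the cluster of the retrotransposons named above. Whether these descriptions name the source of the reads was not tested.

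Mitochondrial features, the transcripts of the mitochondrial genome, held 17212 counts in cut leaf and 12532 in uncut leaf (1.49-fold higher [1.46, 1.53]). Of 89 tested, 46 were 4-fold higher on the plain scale and 3 lower, with a median log2 ratio of 2.61 plain and 1.08 length-matched at a median length of 3999 bases. Over all tested features 11% were 4-fold higher and 8.37% lower on the plain scale. Those of 2910 bases or more had a plain median of 1.64. Plastid features held 1229228 and 1175507 counts (1.14-fold higher), and 18 of 57 tested were 4-fold higher and 5 lower, with a length-matched median of 0.01. CL2222.Contig2, a 680-base fragment of TIC 214, which is encoded in the plastid and takes part in protein import, stood against this with 7 counts in cut leaf and 752 in uncut leaf (98.9-fold lower [47.8, 247]).

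Ribosomal proteins had the highest length-matched median of the lists after retrotransposons. Of 161 tested features for proteins of the cytosolic ribosome, which translates nuclear messages, 148 lay above the median of similar length. Length-matched, 92 were at least 2-fold higher and 3 lower, where 22.1% and 19.1% of all tested features were 2-fold higher and lower. The list's median was 1.18 length-matched and 0.43 plain. These messages are short, with a median of 1024 bases, a range in which most features were lower in cut leaf. All 248 annotated features together held 25916 counts in cut leaf and 20543 in uncut leaf (1.37-fold higher [1.35, 1.40]).

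Both ribosomal subunits took part, with medians of 1.21 over 93 features of the large subunit and 1.10 over 68 of the small one (length-matched). Unigene6849, which encodes the 60S protein L3, held 272 and 50 counts (5.91-fold higher [4.36, 8.16]). CL1833.Contig1, a contig for the 60S protein L5, held 54 and 4 counts, while its cluster held 748 and 232, a 3.50-fold ratio. CL247.Contig4, for protein L30, held 104 and 17 counts and its cluster 829 and 462. Single contigs thus gave larger ratios than their clusters. The 113 features with at least 50 counts in both libraries had a length-matched median of 0.95, or 0.48 where the features of similar length also had to pass that minimum. In the rhizome pair at 4 days the same list had a length-matched median of -0.77 over 122 features, with 7 at least 2-fold higher and 50 lower (over all features there, 13% and 20.7%), and in the leaf pair at a month 0.37 over 147 features; these differences between pairs were not tested.

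Plastid ribosomal proteins, encoded in the nucleus and imported into chloroplasts, lay above their length class in 29 of 32 tested features, with a length-matched median of 0.87. Their plain median was 0.00 and their summed counts were close, 3648 in cut and 4016 in uncut leaf. Unigene6229, for the 50S protein L19-2, held 102 and 33 counts and Unigene2745, for L9, 55 and 23. Translation factors had a length-matched median of 0.43 over 51 features, 19 of them at least 2-fold higher and 5 lower. Over all tested features 22.1% were 2-fold higher and 19.1% lower. Elongation factor 1-alpha, which brings aminoacyl-tRNA to the ribosome, is spread over the 13 contigs of CL100, which held 6921 counts in cut leaf and 2764 in uncut leaf (2.72-fold higher). CL2573.Contig2, for the initiation scaffold eIF4G, held 137 and 12 counts, a length-matched log2 ratio of 1.98, and its cluster 214 and 80.

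**Figure D2:**
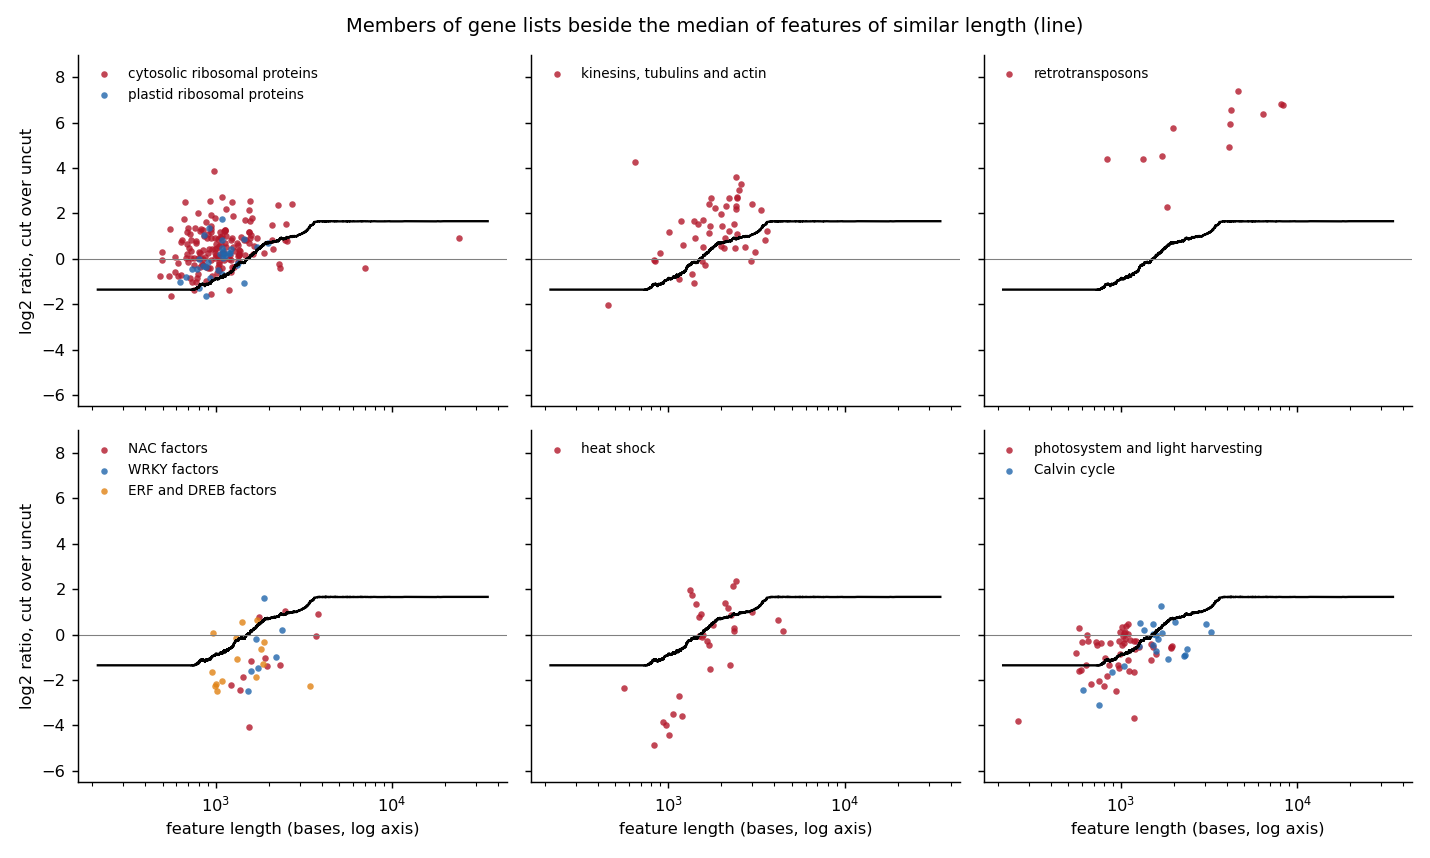
Plain log2 ratio of cut over uncut leaf at 4 days against feature length in bases (log axis) for members of 10 gene lists, with the median of features of similar length as a line. Ribosomal proteins, kinesins, tubulins and retrotransposons lie mostly above the line, NAC and WRKY factors and the shortest heat shock features mostly below it.

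Cytoskeleton genes were higher on both scales. The 224 annotated features for kinesins, tubulins, actin and their partners held 12284 counts in cut leaf and 7202 in uncut leaf (1.85-fold higher [1.80, 1.91]). Of 48 tested, 26 were at least 2-fold higher length-matched and 1 lower, with a median of 1.07 length-matched and 1.21 plain. Over all tested features the 2-fold shares were 22.1% and 19.1%. With at least 50 counts in both libraries, which 25 features had, the plain median was 0.58 and the length-matched one 0.43. Among the tested features the excess lay with microtubules: 16 of 19 tubulin features and 8 of 11 kinesin features, but 3 of 10 features for actin and actin-binding proteins, lay above the median of similar length, a split made after the values were seen. This split was not repeated for features with at least 50 counts in both libraries.

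Tubulins form microtubules, and kinesins are motors that move along them. CL2337.Contig1, an alpha-tubulin, held 2126 counts in cut leaf and 585 in uncut leaf (3.95-fold higher [3.60, 4.33]). CL353.Contig2, another alpha-tubulin, held 230 and 47. Unigene28, a 649-base beta-tubulin contig, held 54 and 0 counts, at least 19.6-fold higher against a floor of 3 counts in that library. Among kinesins, Unigene9285 (KIN-UB) held 90 and 8 counts (12.2-fold higher [5.94, 29.2]), Unigene3871 (KIN-5A, a spindle motor) 60 and 8, and CL1732.Contig1 (KIN-13A) 63 and 7, with 171 and 30 over its cluster. Actin itself was near even on the plain scale: Unigene3519 (actin-7) held 724 and 839 counts.

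Cell division genes were few among the tested features, and single ones stood out from lists without a common direction. Length-matched, 1 of 9 cell cycle features was at least 2-fold higher and 1 lower, with a median of 0.16. Of 4 features for DNA replication and repair, 1 was higher and 2 lower, with a median of -0.40. Over all tested features the shares were 22.1% and 19.1%. CL725.Contig2, the mitotic cyclin S13-7, had 61 counts in cut leaf and 0 in uncut leaf, at least 22.1-fold higher, with 40 and 2 counts in the cut and uncut rhizome libraries at 4 days. Unigene5278, DNA topoisomerase 2, which untangles replicated chromosomes, held 107 and 5 counts (23.2-fold higher [9.66, 73.1]) and 115 and 5 in the rhizome libraries at 4 days. The 19 markers of dividing cells summed to 271 counts in cut leaf and 208 in uncut leaf (1.42-fold higher [1.18, 1.70]), with counts for 18 in cut and 15 in uncut leaf. Against this, Unigene6857, for the kinase CDKG-2, held 9 and 68 counts. Histones, which package new DNA, were lower: 2211 counts in cut leaf and 6257 in uncut leaf over 40 annotated features (2.61-fold lower [2.48, 2.74]).

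Histone features were short, with a median length-matched ratio of -0.43 over 16 tested, 11 of them below their length class. Unigene1449, for histone H3.3, the variant laid down outside replication, held 120 and 1112 counts (8.53-fold lower [7.06, 10.4]), which is -1.74 length-matched. Unigene1577, a linker histone H1, held 116 and 1027 counts and Unigene8004, an H2A, 15 and 75.

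Auxin genes went in both directions. Of 29 tested, 6 were at least 2-fold higher and 6 lower length-matched, with a median of -0.03, close to that of all features. Over all tested features the shares were 22.1% and 19.1%. ARFs made up most of the high end: 8 of 11 lay above features of similar length, with a median of 0.98, a grouping made after the values were seen. The ARF8 and ARF6 features named next reached 50 counts in cut leaf alone, which favours higher ratios. The 12 auxin features with at least 50 counts in both libraries had a length-matched median of -0.37. CL668, for ARF8, held 273 counts in cut leaf and 12 in uncut leaf over its 2 contigs (24.7-fold higher), and Unigene7969, for ARF6, 52 and 3 (18.8-fold higher [6.10, 94.3]). These transcripts were also present in cut rhizome at 4 days, CL668.Contig1 with 133 counts against 0 in the uncut one. Aux/IAA repressors had a median of -0.03 over 9 features, among which CL718.Contig1 (IAA30) held 234 and 49 counts, 5.19-fold higher [3.80, 7.21]. Below their length class lay 4 features for auxin carriers and 2 for SAUR proteins, small early auxin-response proteins. Most of the carrier features are contigs of 1 cluster, CL600. Plain log2 ratios of the 4 ran from -2.20 to 0.32. CL600.Contig2, an auxin efflux carrier that moves auxin out of cells, held 94 and 466 counts (4.56-fold lower [3.65, 5.76]) and its cluster 149 and 654. Unigene5267 (SAUR71) held 8 and 74 counts. The SAUR features, with 25 and 154 counts in sum, entered through uncut leaf alone, which favours lower ratios.

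Receptor kinases with leucine-rich repeats or wall-associated domains had a length-matched median of -0.57, with 9 of 33 at least 2-fold higher and 10 lower (22.1% and 19.1% over all tested features). ERECTA, a receptor that promotes organ growth and patterns stomata in Arabidopsis, was the strongest: its cluster CL847 held 310 counts in cut leaf and 20 in uncut leaf (16.8-fold higher). At a month CL847.Contig1 had 7 counts in cut and 0 in uncut leaf. Homeobox and other meristem factors leaned lower, with 8 of 23 at least 2-fold lower and 4 higher. Unigene9915 (ATHB-13) held 51 and 8 counts, CL1298.Contig1 (ATHB-6) 16 and 86 with 91 and 222 over its cluster. Of 13 tested features for the circadian clock and light signalling, 3 were at least 2-fold higher and 3 lower length-matched, with a median of 0.23. Among its higher members GIGANTEA, a clock protein, held 144 and 13 counts in CL1023.Contig3 and 190 and 43 over the cluster. Phytochrome A (Unigene5897) held 67 and 14 counts and phytochrome C (Unigene9335) 76 and 17; both are red light receptors.

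The wound-associated transcription factors were lower in sum in cut leaf at 4 days. All 39 annotated NAC features together held 1020 counts in cut leaf and 1783 in uncut leaf (1.61-fold lower [1.49, 1.74]), 69 ERF and DREB features 1516 and 2907 (1.77-fold lower [1.66, 1.88]) and 46 WRKY features 636 and 877 (1.27-fold lower [1.15, 1.41]). Length-matched, 9 of 12 tested NAC features were at least 2-fold lower and none higher (median -1.70), as were 4 of 7 WRKY features (median -1.77), while 8 of 15 ERF and DREB features were lower and 1 higher (median -1.18). Over all tested features 19.1% were 2-fold lower and 22.1% higher. The 5 NAC features with at least 50 counts in both libraries had a plain median of 0.78 and a length-matched one of -0.74, or 0.30 where the features of similar length also had to pass that minimum. For the 6 such ERF and DREB features the length-matched values were -0.38 and -0.11. Only 1 of the 7 WRKY features reached 50 counts in both libraries, at 0.20 plain and -0.68 length-matched. With no minimum the plain WRKY median was 0.12 in place of -1.01. In the leaf pair at a month the length-matched medians were 0.06 for NAC over 12 features, 0.39 for WRKY over 5 and 0.08 for ERF and DREB over 14; the difference from 4 days was not tested.

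NAC factors include regulators of senescence, stress and lateral organ growth. CL2382.Contig1, resembling NAC100, held 6 counts in cut leaf and 110 in uncut leaf (16.9-fold lower [7.51, 47.0]), and at a month 3 and 70. Unigene5991 (NAC21/22) held 19 and 112 counts and CL331.Contig2 (NAC72, a drought-response factor in Arabidopsis) 16 and 81. The lowest ERF or DREB feature length-matched was for RAP2-13: CL1268.Contig4, 3427 bases long, held 91 and 472 counts, 4.77-fold lower [3.81, 6.04] and -3.72 length-matched, and its cluster 170 and 641. Plain ratios were as low in Unigene3508 (RAP2-4), with 22 and 132 counts, and Unigene6840 (ERF071), with 96 and 500. CL1408.Contig2, described as WRKY19, held 9 and 55 counts. Apart from CL1268.Contig4 and Unigene6840, the features named here entered through uncut leaf alone, which favours lower ratios.

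Ethylene and jasmonate features were also mostly below their length class. CL1708.Contig2, for ACC oxidase 3, which makes ethylene from its precursor, held 2374 counts in cut leaf and 5666 in uncut leaf (2.20-fold lower [2.09, 2.31]), -1.92 length-matched. Of 19 tested ethylene features 9 were at least 2-fold lower and 1 higher length-matched, where 19.1% and 22.1% of all tested features were. Most of the 19 are also members of the ERF and DREB list above, so the 2 lists are not separate results. Among 10 jasmonate features 8 lay below the median of similar length. Only 3 of the 10 reached 50 counts in both libraries, with a length-matched median of -0.49. Unigene9559 and Unigene5737, named next, entered through uncut leaf alone, which favours lower ratios. Unigene9559, for lipoxygenase 2-1, an early enzyme of jasmonate synthesis, held 2 and 60 counts (27.6-fold lower [7.32, 233]). Unigene5737, resembling MYC2, the master factor of jasmonate responses, held 13 and 63 counts and Unigene2652, resembling the receptor COI1, 72 and 44. Abscisic acid genes were near even, with 1689 and 1877 counts over 93 annotated features.

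Wound and defence proteins had no common direction. Of 15 tested, 5 were at least 2-fold higher and 4 lower length-matched, where 22.1% and 19.1% of all tested features were. Unigene7914, germin-like protein 8-14, a cell wall protein, held 305 counts in cut leaf and 10 in uncut leaf (33.1-fold higher [17.8, 69.8]), which is 5.95 length-matched; at a month it held 29 and 7 counts, and 0 in both rhizome libraries at 4 days. Unigene9481, a Bowman-Birk proteinase inhibitor that blocks digestive proteases, held 4 and 146 counts (33.6-fold lower [12.8, 125]), and 303 and 617 at a month. CL2300.Contig2, resembling the pathogenesis protein PR1, held 7 and 132 counts. The mannose-specific lectin Unigene10843 had 0 counts in cut leaf and 52 in uncut leaf, at least 16.0-fold lower.

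Small heat shock proteins, which hold unfolding proteins in solution, stood apart from the other chaperones. All 5 tested were lower, with 44 counts in cut leaf and 653 in uncut leaf in sum and a length-matched median of -3.05. None of the 5 reached the count minimum in cut leaf. All entered through uncut leaf alone, which favours lower ratios, and their sums cover tested features only. The 13 features for HSP70, HSP90 and their partners held 4915 and 4443 counts with a length-matched median of 0.43. The split of the chaperones was made after the values were seen. CL2198.Contig4, a class I protein, held 6 and 192 counts (29.5-fold lower [13.3, 81.3]). CL1067.Contig3, a class II protein, held 2 and 70, and Unigene242, a chloroplast form, 4 and 69. At a month these 3 features held 123 and 384, 74 and 122, and 37 and 85 counts in cut and uncut leaf, so none was near absent from cut leaf there. The most abundant chaperone, the HSP70 cognate CL1102.Contig3, held 3624 and 3536 counts. Late embryogenesis and dehydrin features are a list of drought and cold proteins. Among 4 tested, 2 were at least 2-fold lower and 1 higher length-matched, where 19.1% and 22.1% of all tested features were. Of these, Unigene5952, resembling CORA, held 7 and 276 counts (36.3-fold lower [17.4, 91.1]). From another list, galactinol synthase 1 (CL1054.Contig3), which starts the synthesis of protective raffinose sugars, held 31 and 308 (9.15-fold lower [6.31, 13.7]).

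**Figure D3:**
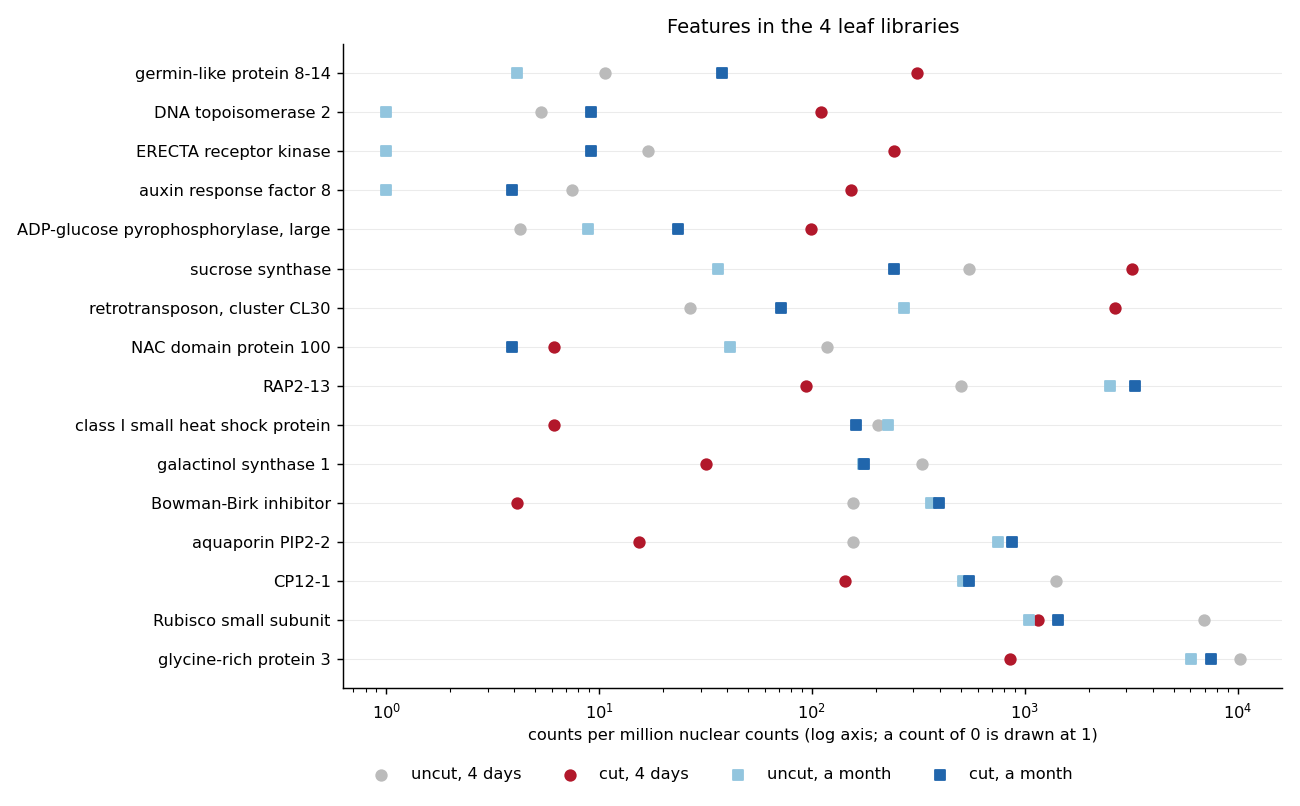
CPM of nuclear counts (log axis, a count of 0 drawn at 1, not scaled by length) of 16 features in the 4 leaf libraries; circles are the 4-day and squares the month libraries. Cut leaf at 4 days is the highest of the 4 for the first 7 features and lies below uncut leaf at 4 days for the other 9.

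Photosynthesis genes were lower in sum and mixed by role. The 32 annotated Calvin cycle features, the enzymes of carbon fixation, held 16754 counts in cut leaf and 33158 in uncut leaf (1.82-fold lower [1.79, 1.86]), and 72 features for photosystems and light harvesting 25497 and 42079 (1.52-fold lower [1.496, 1.54]). The small subunit of Rubisco, the carbon-fixing enzyme, was lower in both tested features: 1122 and 6524 counts in Unigene10191, of 607 bases (5.35-fold lower [5.02, 5.71]), and 5774 and 11881 in Unigene10190, of 2314 bases (1.89-fold lower [1.84, 1.96]). Length-matched they stood at -1.07 and -1.80. Rubisco activase, which keeps Rubisco working, held 3351 and 7230 counts over cluster CL1693, and CP12-1 (Unigene9391), a regulator of the cycle, 140 and 1323 (8.70-fold lower [7.30, 10.4]). Of 22 Calvin features, 18 lay below their length class.

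Photosystem features, by contrast, had a length-matched median of 0.07 and a plain median of -0.53, with 27 of 51 above and 24 below the median of similar length. Light-harvesting proteins, which bind chlorophyll and funnel light, held 18489 and 27654 counts over 21 tested features. CL555.Contig3 held 1694 and 4021 counts and its cluster 5663 and 9493, while Unigene3503 held 1383 and 1148. Oxygen-evolving enhancer 2, part of the water-splitting complex, was 12.9-fold lower in CL961.Contig1 (19 and 267 counts) while its cluster held 456 and 741 counts. Chlorophyll synthesis had members on the other side: protochlorophyllide reductase (CL902.Contig2), which carries out its light-dependent step, held 368 and 48 counts, with 556 and 209 over the cluster (2.89-fold higher), and porphobilinogen deaminase (Unigene1738), an earlier enzyme, 228 and 40 (6.19-fold higher [4.41, 8.90]). Geranylgeranyl reductase (Unigene8244), which makes the chlorophyll tail, held 156 and 547.

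Starch synthesis and glycolysis were higher in sum in cut leaf, and less so length-matched. Starch synthesis held 2250 counts in cut leaf and 1269 in uncut leaf over 33 annotated features (1.93-fold higher [1.80, 2.07]), glycolysis and fermentation 5545 and 3127 over 64 (1.93-fold higher [1.84, 2.01]). The 12 tested starch synthesis features had a median of 1.08 plain and 0.30 length-matched, and the 7 with at least 50 counts in both libraries a length-matched one of 0.01. Glycolysis had medians of 0.89 and 0.61. Of its 18 tested features, 17 lay above their length class, 7 at least 2-fold, where 22.1% of all tested features were 2-fold higher. ADP-glucose pyrophosphorylase commits glucose to starch: its large subunit Unigene8196 held 97 and 4 counts (26.3-fold higher [9.96, 98.6]), and the small subunit cluster CL297 807 and 444. Starch branching enzyme 1 (Unigene2429) held 53 and 10. Pyruvate kinase (CL514.Contig2), the last step of glycolysis, held 83 and 15 counts.

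Sucrose synthase, which opens sucrose for use in growing tissue, was among the most abundant of these. CL1148.Contig2 held 3116 counts in cut leaf and 512 in uncut leaf (6.61-fold higher [6.02, 7.27]), but at 5394 bases this was 1.07 length-matched; it held 3191 and 149 counts in cut and uncut rhizome at 4 days. The rest of the sucrose and trehalose list lay lower, with 6 of 13 features at least 2-fold lower length-matched and a median of -0.92. Of all tested features 19.1% were 2-fold lower. CL1942.Contig1, a sugar or inositol transporter, held 47 and 363 counts (7.11-fold lower [5.24, 9.85]). Among 76 transporters for sugars and ions 53 lay below their length class.

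Wall genes followed no single direction. Pectin enzymes held 1390 and 1030 counts over 81 annotated features (1.47-fold higher [1.35, 1.59]); pectin acetylesterase 10 (CL1665, 133 and 44 counts) and a polygalacturonase (Unigene7265, 53 and 12) were higher. With at least 50 counts in both libraries the plain median of the pectin list was -0.50 in place of 1.02. Cellulose and hemicellulose synthesis was 1.76-fold higher in sum, with a length-matched median of 0.05, and its outlying member CesA-like H1 (Unigene3850) held 109 and 454 counts. Aquaporins, the water channels, held 2535 and 4318 counts over 28 annotated features (1.57-fold lower [1.49, 1.65]), with PIP2-2 (CL1050.Contig1) at 15 and 147. That contig entered through uncut leaf alone. The length-matched median was -0.65 over 12 tested aquaporin features, and 0.13 over the 7 with at least 50 counts in both libraries.

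Some abundant messages were far lower. Metal-binding proteins, mainly metallothioneins that bind zinc and copper, held 3364 counts in cut leaf and 14575 in uncut leaf over 59 annotated features (3.99-fold lower [3.84, 4.14]). Cluster CL851 held 639 and 4139, and Unigene4608 (type 3) 299 and 2271. They are among the shortest features, of a median 844 bases, and their length-matched median was -0.45. At a month the list held 9256 counts in cut and 37344 in uncut leaf, 1.21% and 2.21% of nuclear counts. There CL851.Contig1 held 660 and 8593 counts, a plain log2 ratio of -2.21, and Unigene4608 374 and 4509, one of -2.10. The glycine-rich RNA-binding protein 3 Unigene3568 held 835 and 9607 counts (10.6-fold lower [9.87, 11.4]), -3.23 length-matched. The vacuolar-processing enzyme Unigene10419, a protease of cell death and senescence, held 84 and 250 counts, and 8 of 9 features for autophagy and senescence proteases lay below their length class. Terpene synthase 10 (CL507.Contig3) held 6 and 63 counts, but its cluster 162 and 205.

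**Figure D4:**
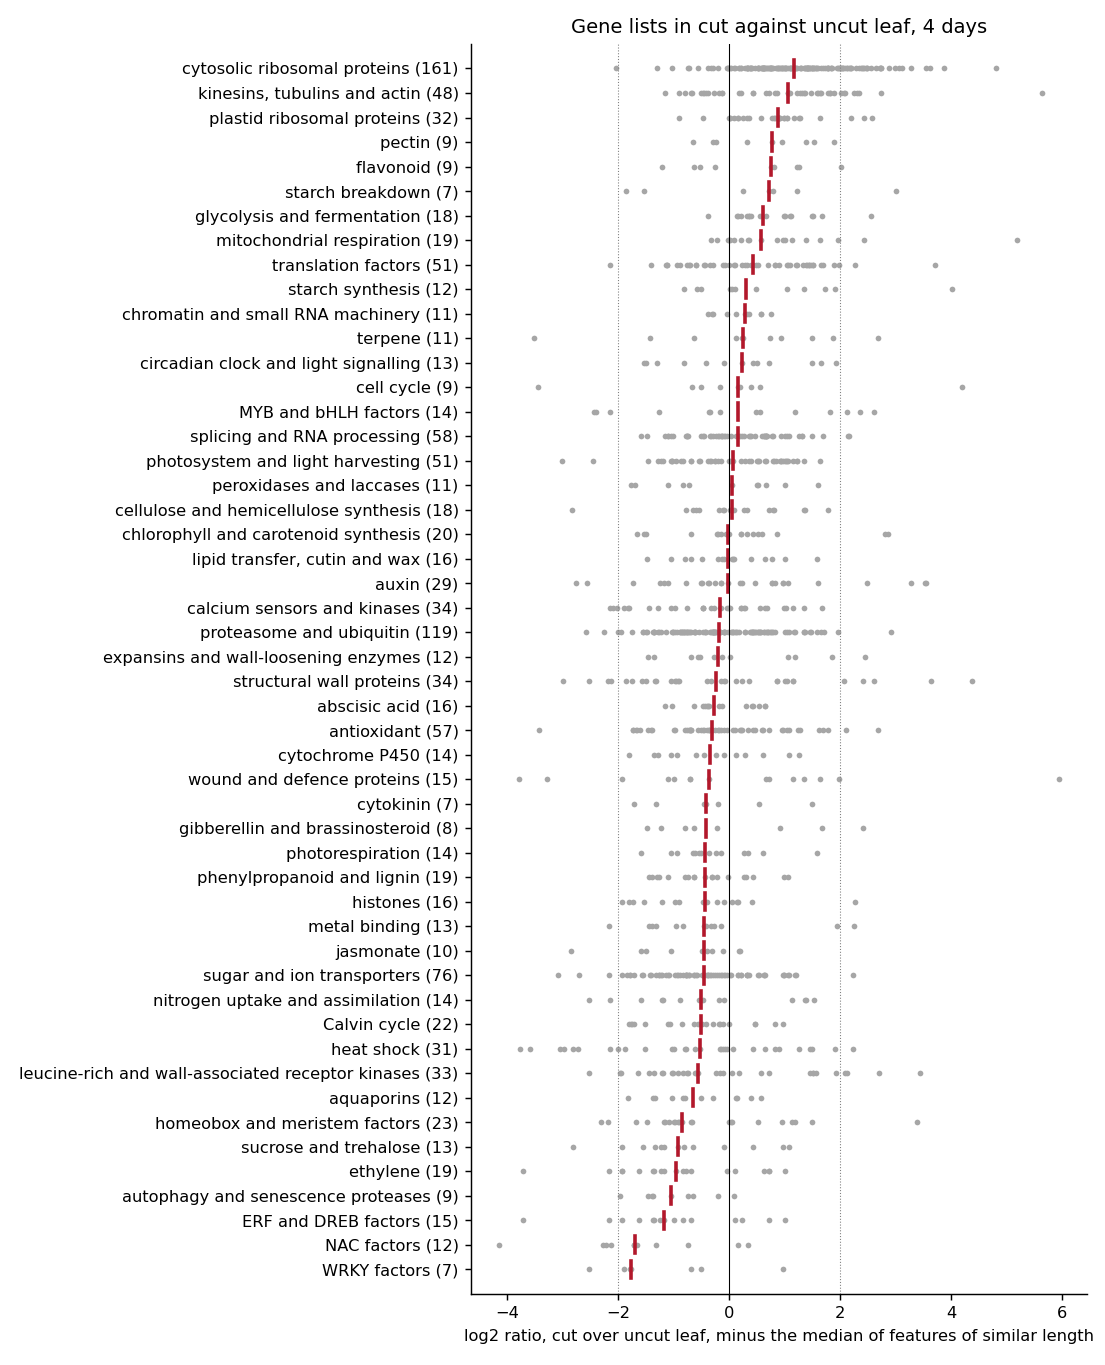
Length-matched log2 ratio of cut over uncut leaf at 4 days for the tested members (points) of 50 gene lists with at least 7 tested members, number in brackets, and their median (bar); dotted lines mark 4-fold. Medians run from -1.77 for WRKY factors to 1.18 for cytosolic ribosomal proteins; retrotransposons are left out.

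By the rule of 4-fold on both scales, little of the 4-day difference was met again in leaf at a month. There 74 of 5522 features (1.34%) were 4-fold higher in cut leaf and 129 (2.34%) lower on the plain scale, and 1.7% and 1.76% length-matched. Of the 279 features higher at 4 days on both scales, 43 were tested at a month and 1 was higher there too, and of the 140 lower features, 123 were tested and 4 were lower. The metallothioneins CL851.Contig1 and Unigene4608, lower at both times, miss the rule at 4 days, at -1.38 and -1.45 length-matched. In the rhizome pair at 4 days, 588 of 2815 features (20.9%) were 4-fold higher on the plain scale and 48 (1.71%) lower, and 2.63% and 5.01% length-matched. Of the 279 higher leaf features, 220 were tested in that pair and 33 were higher there too, 11.8% of the 279 and 48.5% of its own 68. Of the 140 lower ones, only 20 were tested there and 2 were lower. These pairs have no library in common. The nuclear depth of uncut rhizome at 4 days, 119869 counts, limits what could be tested there.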

How the data were processed

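The deposited values are expected counts and FPKM per assembled feature. The submitters' processing notes name Bowtie2 and RSEM, with versions not given. Expected counts were rounded to whole numbers, and features that a table does not list were set to 0. Features were classed as ribosomal RNA, organelle or nuclear from the deposited annotation. The 2 libraries were scaled by the trimmed mean of M-values (TMM) over features that are not ribosomal RNA, with Python 3.11.15, numpy 2.4.6, pandas 2.3.3 and scipy 1.17.1. Lower values were counted as at least 3. Length matching took the median of 200 features on either side by length, a step checked on simulated data with a length trend. With 1 library a group there is no test, and intervals are exact binomial ones for counting error. Members and the 54 lists, built from description words and corrected after descriptions had been seen, were chosen with earlier results of these data known. Features named were, per list, up to 3 with the largest log2 ratios at least 1 in size with 1 sign on both scales (otherwise the most abundant member), the 8 highest and 8 lowest length-matched, and the 8 most abundant. Of the 161 so named, the text gives the main ones. Other features named were chosen after their values were seen. Alternatives varied the scaling, the count minimum, the floor, the window, the unit and the treatment of clusters.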

Additional observations from a re-analysis of the deposited data

Results flagged for a closer look

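At 4 days and at a month, 8 features were at least 4-fold apart in opposite directions between cut and uncut leaf; the difference between the time points was not tested. CL1320.Contig1, for phosphoenolpyruvate carboxylase, which fixes carbon into 4-carbon acids, held 97 and 2 counts in cut and uncut leaf at 4 days (log2 ratio 5.13) and 1 and 164 at a month (-4.28). Its whole cluster went the same ways with 499 and 205 counts at 4 days and 102 and 438 at a month. CL1025.Contig2, a defensin, an antimicrobial peptide, went from -2.06 (401 and 1818 counts) to 4.70 (2605 and 282). CL147.Contig2, whose description names elongation factor EF-Ts, had 2.16 and -3.46. The others have no description: CL18.Contig6 with 7.38 and -2.13, CL18.Contig7 with 6.92 and -2.42, CL30.Contig3, of the retrotransposon cluster, with 5.53 and -3.07, Unigene3606 with -2.15 and 2.08 and Unigene9618 with -3.34 and 3.36.

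Ribosomal RNA features stand outside the comparison, and 9 of them were at least 4-fold higher in cut leaf at 4 days, on the scaling of the other features. CL455.Contig2, matching Acorus calamus 5S ribosomal RNA genes, held 2391 counts in cut leaf and 23 in uncut leaf, and 2081 and 1 in cut and uncut rhizome at 4 days. CL455.Contig1, with the same match, held 101 and 0. CL1410.Contig2, matching an external transcribed spacer next to 18S ribosomal RNA, held 1197 and 63. Matches to mitochondrial ribosomal RNA were CL299.Contig2 with 1752 and 325 counts, CL2554.Contig1 with 427 and 59, CL2619.Contig2 with 87 and 15, Unigene1230 with 82 and 21, and Unigene5281 with 60 and 2. CL2451.Contig1, with a 16S match, held 527 and 2.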

How the results depend on the processing

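The 4 counts of features past 4-fold (447 and 339 plain, 348 and 197 length-matched, higher before lower) moved most with the count minimum: 870, 726, 744 and 410 at 20 counts, 85, 83, 80 and 50 at 200 counts, and 1131, 918, 977 and 1004 without one. A minimum of 50 counts in both libraries, an alternative added after seeing the data, left 28, 45, 16 and 36. With deposited FPKM, 79 and 377 were higher and lower after adding 1, and 287 and 549 after adding 0.1. Total counts in place of TMM gave 400 higher and 408 lower on the plain scale and moved the median of all features from 0.14 to -0.04. DESeq2's size factors, a floor of 1, the window of lengths, clusters summed, organelle features or Unigene19161 left out, and a length median over described nuclear features (also added after seeing the data) kept all 4 counts within 1.5 times. Summing clusters turned CL146.Contig1 (plain 0.3441), CL2234.Contig1 (plain 0.9267) and CL961.Contig1 (length-matched 0.0379) from lower to higher. The plain WRKY median turned to 0.1194 without a minimum and to 0.2046 with 50 counts in both libraries, where NAC stood at 0.7793 plain and 0.2978 length-matched and pectin at -0.5035 plain. For these length-matched values the features of similar length changed along with the members; against the length median used elsewhere the same 5 NAC features stood at -0.74. The minimum changes which features enter, and other causes were not tested. Over the lists, 1147 medians moved by less than 1.5-fold and 109 by more, and 5 medians of at least 2-fold in size changed sign; of single features, 3171 values stayed within their counting interval and 359 left it, and 3 at least 4-fold in size changed sign. No paired analysis was possible because each group has 1 library and the labels give no replicate numbers; for the same reason no library could be left out. At 50 counts, ratios of single features carry wide counting intervals, and the spread between explants is unknown.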

Other observations

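Some lists not described above were higher in sum in cut leaf at 4 days but near even length-matched. Splicing and RNA processing held 7628 and 5976 counts in cut and uncut leaf over 339 annotated features, and its 58 tested features had a median log2 ratio of 0.87 plain and 0.16 length-matched. Chromatin and small RNA machinery held 3187 and 2128 counts over 148 annotated features, with medians of 0.91 and 0.28 over 11 tested. The proteasome and ubiquitin list had a length-matched median of -0.18 over 119 tested features. Antioxidant proteins held 8983 and 12063 counts over 184 annotated features, and in Unigene6887, a chloroplast thioredoxin-like protein, 12 and 154 (11.8-fold lower [6.57, 23.4]). Flavonoid genes, 2732 and 4729 counts in sum, included chalcone synthase, the entry enzyme of the pathway, in CL371.Contig1 with 304 and 133 counts (2.48-fold higher [2.02, 3.07]) and 470 and 359 over its cluster. In the cytokinin list, the response regulator Unigene4715 held 191 and 37 counts and the histidine kinase Unigene2803 10 and 80.

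Nitrogen genes were split as well. Ferredoxin-nitrite reductase, which reduces nitrite in plastids, held 9 and 110 counts in CL1914.Contig1 but 313 and 649 over its cluster, while Unigene279, described as Nitrate regulatory gene2 protein, held 60 and 15. Hydroxymethylglutaryl-CoA synthase, an early enzyme of terpene synthesis in the cytosol, held 57 and 7 counts in CL127.Contig1 and 105 and 34 over its cluster. Unigene8075, described as a neurofilament-like protein, held 103 and 2666 counts (23.8-fold lower [19.6, 29.3]).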
